A study of Homo sapiens with 18 samples.

Results

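The genes described here are 8 human genes of the cholesterol pathway that are switched on by the sterol-sensing transcription factor SREBP2: INSIG1, HMGCS1, SQLE, LSS, IDI1, FDFT1, DHCR7 and SREBF2, the gene of SREBP2 itself. Every probe of the bead array annotated with one of these symbols was taken and is given apart. That gave 12 probes for 7 of the 8 genes, out of 47231 probes in the table, and FDFT1 was not analysed here. Of the 12 probes, 11 passed the filter on low values (a detection p-value under 0.05 on at least 3 arrays), as did 22161 probes in all. The probe that did not pass was LSS ILMN_1687863, which was detected on 1 of 18 arrays, with group means of 4.81 to 5.16 on the log2 scale, and was not tested.

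The study used HEK293, a human embryonic kidney cell line, in which endogenous p65 was knocked down with siRNA in every group and replaced, through a lentivirus, by an siRNA-resistant HA-tagged p65. p65, encoded by RELA, is a DNA-binding subunit of NF-kappa B. The S547A line carried p65 with a single serine replaced by alanine, as its name gives, and the wt line carried wild-type p65. Cells of each line were left untreated or received etoposide, a topoisomerase II poison that breaks DNA, for 4 h or 8 h. This made 6 groups of 3 arrays: S547A untreated, S547A 4 h, S547A 8 h, wt untreated, wt 4 h and wt 8 h. The labels call the triplicates independent, and they give neither the etoposide dose nor the number of clones behind each line.

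Cells make cholesterol from acetyl-CoA through the mevalonate pathway. When membrane sterols are plentiful, INSIG proteins hold the SREBP escort protein SCAP in the endoplasmic reticulum. When sterols fall, SCAP carries SREBP2 to the Golgi apparatus, where it is cleaved, and the released part activates the genes of the pathway, INSIG1 and SREBF2 among them. HMGCS1 makes HMG-CoA, IDI1 isomerises the isoprenoid building block, FDFT1 makes squalene, SQLE and LSS turn squalene into lanosterol, and DHCR7 acts in the last steps towards cholesterol.

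The bases just before the transcription start are shown for INSIG1, both of whose probes fell, for LSS, of which 1 probe fell, for HMGCS1, whose probe did not pass the test, and for SREBF2. They are the 250 bases before the start in RefSeq, build GRCh38.p14, written 5′ to 3′ along the gene. The regions are chr7:155297628-155297877 on the plus strand for INSIG1, chr21:46228775-46229024 on the minus strand for LSS, chr5:43313413-43313662 on the minus strand for the outer of 2 HMGCS1 starts, and chr22:41832855-41833104 on the plus strand for SREBF2. Capitals mark matches, on either strand, to the sterol regulatory element TCACNCCAC, the CCAAT box, which reads ATTGG on the other strand, and the E-box CACGTG.
INSIG1: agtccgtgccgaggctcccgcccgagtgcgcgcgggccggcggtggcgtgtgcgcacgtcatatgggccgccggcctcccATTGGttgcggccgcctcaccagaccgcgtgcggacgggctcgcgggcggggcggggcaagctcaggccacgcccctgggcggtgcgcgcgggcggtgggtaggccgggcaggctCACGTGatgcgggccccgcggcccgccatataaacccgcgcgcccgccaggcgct
LSS: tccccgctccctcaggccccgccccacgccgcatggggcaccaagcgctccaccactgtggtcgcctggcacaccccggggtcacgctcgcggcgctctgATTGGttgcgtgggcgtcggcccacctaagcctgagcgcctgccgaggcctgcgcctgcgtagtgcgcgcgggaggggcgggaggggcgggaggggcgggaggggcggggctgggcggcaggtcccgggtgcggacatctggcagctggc
HMGCS1: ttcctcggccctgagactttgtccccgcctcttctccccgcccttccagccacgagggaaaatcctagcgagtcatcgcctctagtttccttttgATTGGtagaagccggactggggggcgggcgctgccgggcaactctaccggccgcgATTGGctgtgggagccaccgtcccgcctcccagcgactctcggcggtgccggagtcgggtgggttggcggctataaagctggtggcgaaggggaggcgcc
SREBF2: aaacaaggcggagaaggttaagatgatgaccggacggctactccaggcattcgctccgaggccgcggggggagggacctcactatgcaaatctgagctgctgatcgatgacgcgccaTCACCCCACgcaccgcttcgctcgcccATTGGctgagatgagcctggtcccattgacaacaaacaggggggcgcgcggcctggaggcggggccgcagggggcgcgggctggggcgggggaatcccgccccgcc

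Of 35116 RefSeq windows of this length, 0.883% held TCACNCCAC, 32.0% held a CCAAT box, 6.34% held CACGTG, 42.6% held the GC box GGGCGG and 5.21% held the kappa B consensus, counting both strands. SREBF2 held TCACCCCAC from 133 to 125 bases before its start, and ATTGG from 106 to 102 bases before it. Its window also held a kappa B match from 18 to 9 bases before the start, which shared bases with both of its GC boxes. Every window of INSIG1, LSS, HMGCS1, IDI1 and DHCR7 held 0 matches to TCACNCCAC and 0 to the kappa B consensus. The window of SQLE was not analysed here. INSIG1 held CACGTG from 55 to 50 bases before its start, ATTGG from 170 to 166, and 5 GC boxes. LSS held ATTGG from 150 to 146 bases before its start and 6 GC boxes, and the HMGCS1 window shown held ATTGG at 155 to 151 and at 100 to 96. The 3 windows of IDI1 and the 2 of DHCR7 held 3, 2 and 0 and 2 and 0 CCAAT boxes. A match is a description of letters and not of a bound site.

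Median intensity before normalization ran from 94.7 to 122.5 over the 18 arrays. Each array detected 35.8% to 39.2% of its probes, and arrays of one group correlated at 0.981 to 0.988 across probes. The RELA probe was detected on every array, and its place relative to the introduced gene is not given. It averaged 8.84 ± 0.20, 10.14 ± 0.13 and 9.67 ± 0.11 at 0, 4 and 8 h in S547A cells, against 7.78 ± 0.32, 9.41 ± 0.05 and 9.20 ± 0.03 in wt cells (log2, SD, n = 3). Of 8 genes listed for the HEK293 lineage, 4 (NEFM, NEFL, VIM and KRT18) were detected on all 18 arrays and PAX2 on 1 at most. Of 4 markers listed for each other cell type, 1 of blood (CD14, on 15 arrays), 3 of fibroblasts (COL1A1 and COL3A1 on 13, LUM on 9), 3 of hepatocytes (ALB on 16, TTR on 4, APOA1 on 3) and 1 of adipocytes (LEP on 18) were detected on at least 3 arrays, counting each gene's most detected probe. PTPRC, CD3E, CYP7A1 and PLIN1 were detected on 0 arrays.

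INSIG1, the sterol-dependent brake on SREBP processing, had the widest range of group means among these genes, and both of its probes fell in both lines. On ILMN_1793474, the S547A arrays read 11.37, 11.52 and 11.39 untreated, 10.70, 11.20 and 11.15 at 4 h and 9.82, 9.91 and 9.97 at 8 h (log2). The wt arrays read 11.54, 11.63 and 11.58 untreated, 11.12, 11.31 and 11.17 at 4 h and 9.85, 9.84 and 10.00 at 8 h. Within each line all 3 arrays at 8 h lay below all arrays at 4 h, and those lay below all untreated arrays. At 8 h against untreated the log2 change was -1.53 ± 0.14 (SE) in S547A cells (limma, adjusted p = 5.39e-07) and -1.69 ± 0.14 in wt cells (adjusted p = 1.61e-07), 2.89-fold and 3.22-fold lower. Most of the decrease came after 4 h. Between 4 h and 8 h the probe fell by 1.12 in S547A cells (adjusted p = 0.000126) and by 1.30 in wt cells (adjusted p = 3.16e-05). Its change by 4 h, -0.41 in S547A cells (adjusted p = 0.0925) and -0.39 in wt cells (adjusted p = 0.112), did not pass. In the authors' own normalized intensities the same probe averaged 2901 ± 166, 2219 ± 392 and 1047 ± 52 at 0, 4 and 8 h in S547A cells, against 3230 ± 101, 2485 ± 170 and 1045 ± 59 in wt cells (SD, n = 3). Arrays measure RNA of the whole culture, so fewer expressing cells and less RNA per cell cannot be told apart.

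The other INSIG1 probe, ILMN_1686989, also had lower means at each later time in both lines. Its S547A arrays read 7.69, 7.68 and 7.81 untreated, 6.68, 7.03 and 6.49 at 4 h and 5.72, 5.79 and 5.40 at 8 h. Its wt arrays read 7.32, 7.48 and 7.22 untreated, 7.36, 6.90 and 6.86 at 4 h and 5.51, 5.97 and 6.05 at 8 h. In S547A cells the 3 times did not overlap, whereas 1 wt array at 4 h lay among the untreated ones. By 8 h the probe fell by 2.09 in S547A cells (adjusted p = 5.15e-07) and by 1.50 in wt cells (adjusted p = 1.65e-05). It was also the only probe of these genes called at 4 h, with a log2 change of -0.99 ± 0.18 in S547A cells (adjusted p = 0.00333), against -0.30 ± 0.18 in wt cells (adjusted p = 0.426). Between 4 h and 8 h it changed by -1.10 in S547A cells (adjusted p = 0.0014) and by -1.20 in wt cells (adjusted p = 0.000929). Without background correction the decrease by 8 h was 1.17 in S547A cells and 0.81 in wt cells on the log2 scale, still called. In the authors' normalized table, whose method is not given, it was 1.17 in S547A cells and 0.82 in wt cells.

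**Figure D1:**
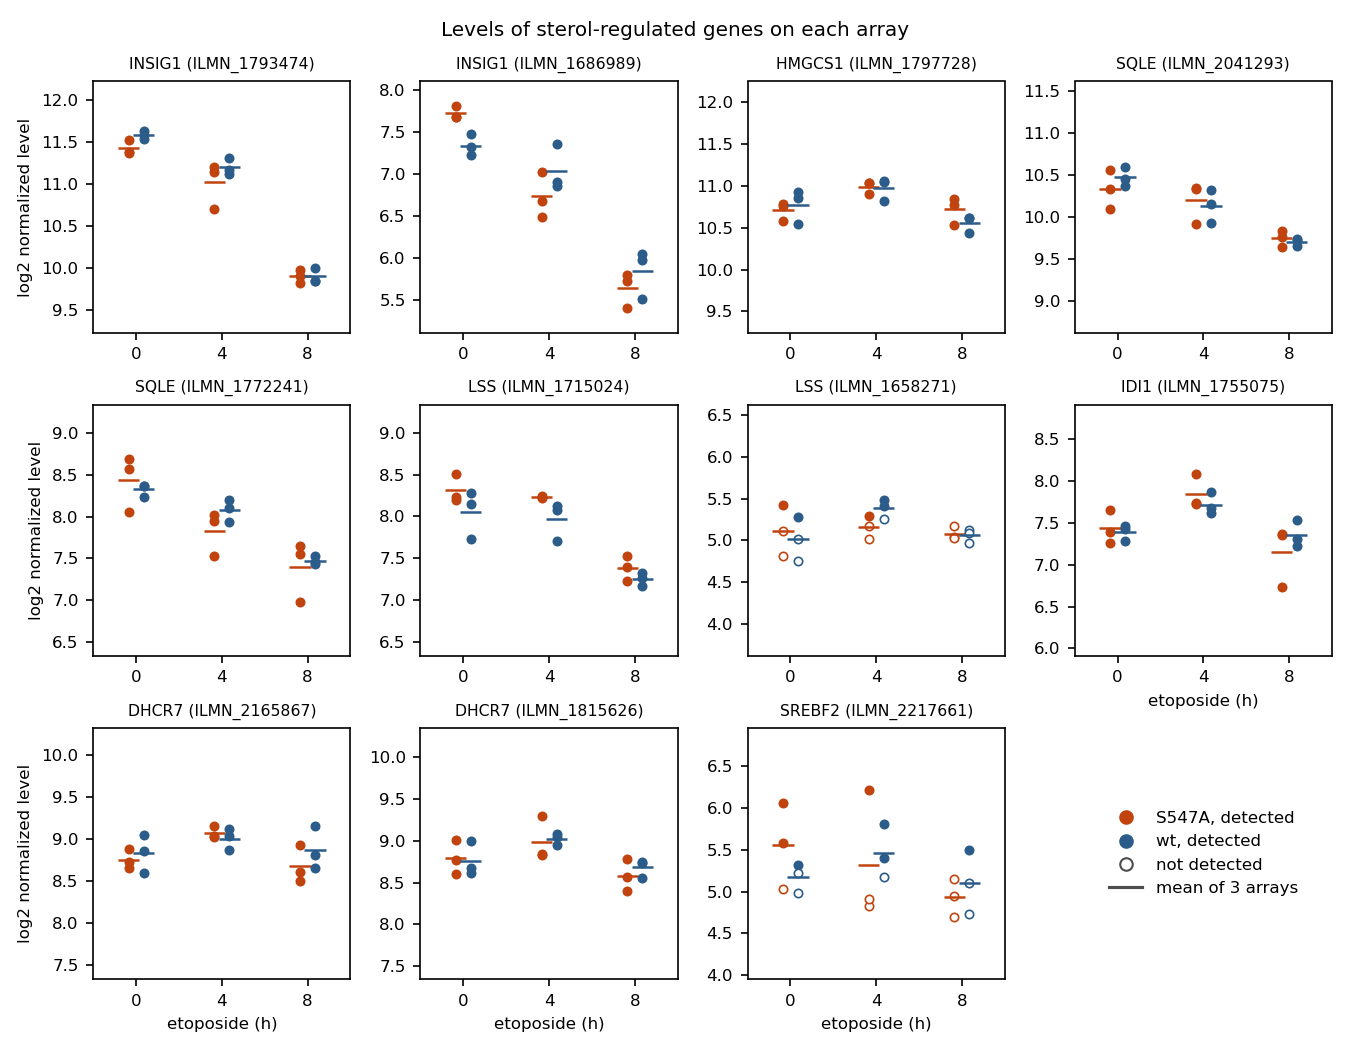
Log2 normalized level (vertical axes, each spanning 3 log2 units) of each of the 11 kept probes against hours of etoposide, with every array as a point, S547A left of wt at each time, open points for arrays on which the probe was not detected, and bars for means of 3 arrays. Both INSIG1 probes have lower means at 4 h than at 0 h and lower ones again at 8 h in both lines, both SQLE probes and LSS ILMN_1715024 are lowest at 8 h, and the HMGCS1, IDI1 and DHCR7 points at 8 h overlap those of untreated cells.

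SQLE, the squalene epoxidase, fell on both of its probes by 8 h. On ILMN_2041293 the S547A arrays read 10.10, 10.34 and 10.57 untreated, 9.92, 10.33 and 10.34 at 4 h and 9.64, 9.76 and 9.83 at 8 h. The wt arrays read 10.59, 10.37 and 10.45, then 9.93, 10.15 and 10.32, then 9.65, 9.74 and 9.72. In both lines the 8 h arrays lay below every untreated and every 4 h array. The change by 8 h was -0.59 ± 0.15 in S547A cells (adjusted p = 0.00961) and -0.77 ± 0.15 in wt cells (adjusted p = 0.00152). The S547A call rested on 1 untreated array: without S547A untreated replicate 3 the change was -0.47, with an adjusted p of 0.0551. Scaling the arrays to a common median also ended it, at -0.44 with an adjusted p of 0.161.

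The other SQLE probe, ILMN_1772241, averaged 8.44 ± 0.34, 7.83 ± 0.26 and 7.39 ± 0.36 at 0, 4 and 8 h in S547A cells, against 8.32 ± 0.07, 8.08 ± 0.13 and 7.47 ± 0.05 in wt cells (SD, n = 3). It fell by 1.04 by 8 h in S547A cells (adjusted p = 0.00072) and by 0.85 in wt cells (adjusted p = 0.00372). The S547A decrease by 8 h was 2.06-fold on this probe and 1.51-fold on the other one. At 4 h its changes were -0.61 in S547A cells and -0.25 in wt cells, neither called (adjusted p = 0.0776 and 0.558).

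LSS, which closes the squalene epoxide into lanosterol, was not called at 4 h and fell afterwards. On ILMN_1715024 the S547A arrays read 8.24, 8.20 and 8.50 untreated, 8.22, 8.24 and 8.24 at 4 h and 7.22, 7.40 and 7.53 at 8 h. The wt arrays read 7.73, 8.28 and 8.15 untreated, 8.08, 7.71 and 8.12 at 4 h and 7.26, 7.16 and 7.32 at 8 h. The 8 h arrays lay apart from and below both earlier times in each line. The change by 8 h was -0.93 ± 0.16 in S547A cells (adjusted p = 0.00037) and -0.80 ± 0.16 in wt cells (adjusted p = 0.00132). The change by 4 h was -0.08 in both (adjusted p = 0.854 and 0.855). Between 4 h and 8 h it fell by 0.85 in S547A cells (adjusted p = 0.00294) and by 0.72 in wt cells (adjusted p = 0.00993). The wt call was lost when arrays were scaled to a common median (-0.47, adjusted p = 0.111). A second kept LSS probe, ILMN_1658271, was detected on 5 of 18 arrays and on 0 of the 6 arrays at 8 h, so it gives only an upper bound there.

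HMGCS1, IDI1 and DHCR7 were not called at 8 h against untreated in either line. HMGCS1, whose product is the substrate of HMG-CoA reductase, averaged 10.71 ± 0.11, 10.99 ± 0.07 and 10.72 ± 0.16 at 0, 4 and 8 h in S547A cells, against 10.78 ± 0.20, 10.97 ± 0.13 and 10.55 ± 0.10 in wt cells (SD, n = 3). Its change by 8 h was 0.01 (95% interval -0.28 to 0.30, adjusted p = 0.967) in S547A cells and -0.22 (-0.51 to 0.07, adjusted p = 0.292) in wt cells. These intervals leave out the size of the INSIG1 decrease but not a small change in either direction.

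IDI1, the isopentenyl-diphosphate isomerase, was highest at 4 h. Its S547A arrays read 7.66, 7.39 and 7.26 untreated, 8.09, 7.73 and 7.73 at 4 h and 7.37, 6.74 and 7.36 at 8 h. Its wt arrays read 7.46, 7.43 and 7.29, then 7.86, 7.62 and 7.67, then 7.31, 7.54 and 7.23. All 4 h arrays lay above all untreated and all 8 h arrays of their line. The change by 4 h was 0.41 ± 0.17 in S547A cells and 0.33 ± 0.17 in wt cells, not called (adjusted p = 0.21 and 0.348). Between 4 h and 8 h IDI1 fell by 0.69 in S547A cells (adjusted p = 0.0183), against a change of -0.36 in wt cells (adjusted p = 0.24). That call was lost without S547A 4 h replicate 1 (-0.58, adjusted p = 0.0845) and without S547A 8 h replicate 2 (-0.48, adjusted p = 0.0915). It was also lost with the fit limited to the groups compared (adjusted p = 0.122) and with arrays scaled to a common median (adjusted p = 0.106).

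DHCR7, the 7-dehydrocholesterol reductase, changed by -0.08 and -0.21 by 8 h in S547A cells on ILMN_2165867 and ILMN_1815626, against 0.03 and -0.08 in wt cells, and none of these passed (adjusted p = 0.406 to 0.922). Its group means stayed between 8.68 and 9.08 on the first probe and between 8.58 and 9.02 on the second. SREBF2, which encodes the SREBP2 precursor, lay near background: its probe was detected on 7 of 18 arrays and on 0 of the 3 S547A arrays at 8 h, with group means of 4.93 to 5.55. Its fitted change by 8 h, -0.62 in S547A cells (95% interval -1.30 to 0.06), where the 8 h level is only an upper bound, and -0.07 in wt cells (-0.75 to 0.61), was not called.

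Counted over the 11 kept probes, 1 was called at 4 h in S547A cells and 0 in wt cells, against 2.17% and 2.55% of all kept probes called lower. At 8 h 5 were called in each line (both of INSIG1, both of SQLE and 1 of LSS), all lower, against 10.9% of all kept probes called lower in S547A cells and 9.81% in wt cells. The median change of the 11 at 8 h was -0.59 in S547A cells and -0.22 in wt cells, against -0.02 over all kept probes in both. The share of all probes called lower depended on the scaling: with arrays scaled to a common median it was 3.91% in S547A cells and 5.74% in wt cells, with 4 and 5 of these probes called. With 1 probe per gene, 3 genes were called in each line. In wt cells at 4 h, 3 of the 11 probes had an unadjusted p under 0.05, among 4055 of all kept probes, and 1 of them, INSIG1 ILMN_1793474, was called in the authors' normalized table (-0.38, adjusted p = 0.0318).

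**Figure D2:**
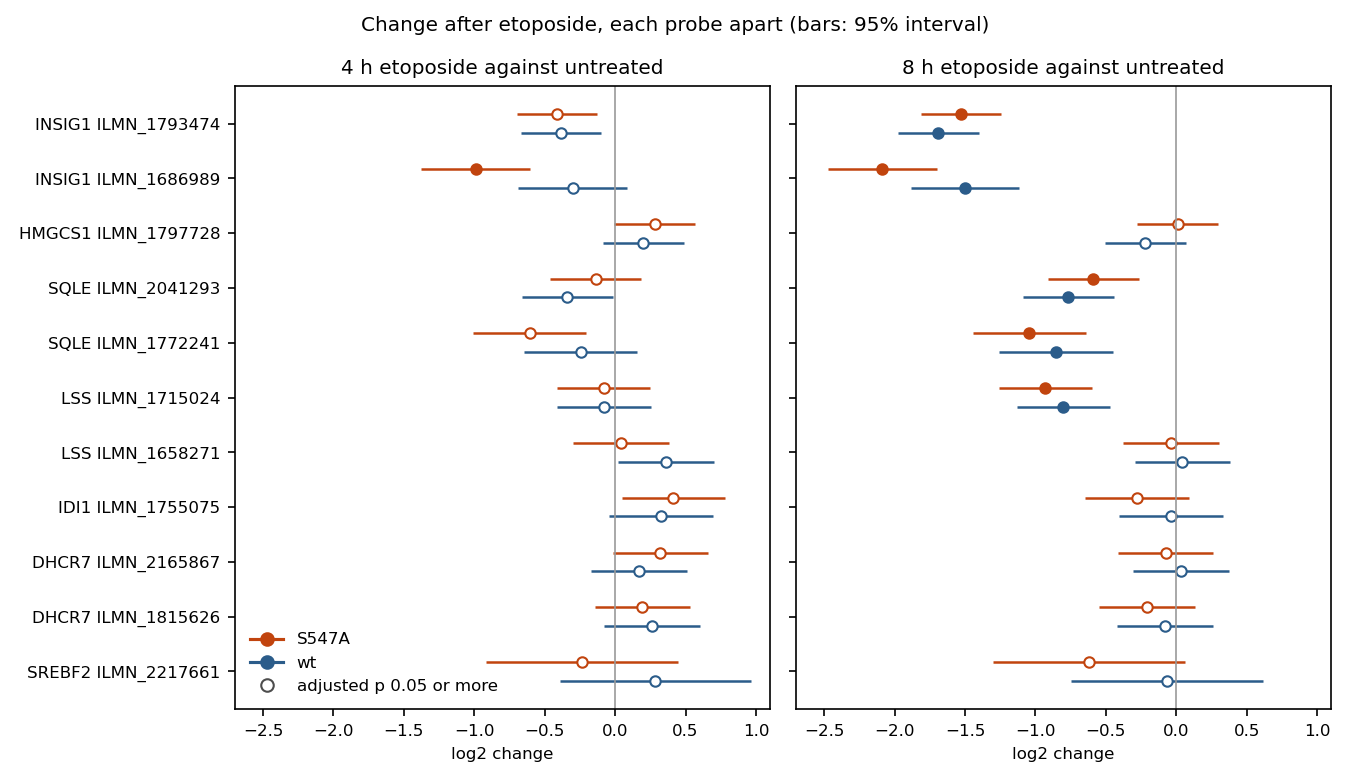
Log2 change after 4 h (left) and 8 h (right) of etoposide against untreated cells for each kept probe, S547A above wt, with bars for the 95% interval of limma and filled points for an adjusted p under 0.05. At 8 h the 5 filled probes in each line range from -2.09 to -0.59 in S547A cells and from -1.69 to -0.77 in wt cells, and the other intervals cross 0.

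Between 4 h and 8 h every one of the 11 probes had a negative change in both lines, with a median of -0.44 in S547A cells and -0.42 in wt cells against -0.01 and 0.00 over all kept probes. The called probes were 4 in S547A cells (both of INSIG1, LSS ILMN_1715024 and IDI1) and 3 in wt cells (both of INSIG1 and the same LSS probe), against 4.68% and 3.13% of all kept probes called lower. Before 4 h the genes did not share a direction: in S547A cells 6 of the 11 changes were negative and 5 positive, and in wt cells 5 were negative and 6 positive. HMGCS1, IDI1 and both DHCR7 probes had a positive change at 4 h and a negative one afterwards in both lines, of which the IDI1 decrease in S547A cells was the one called. Both INSIG1 and both SQLE probes had negative changes in both steps. The changes from 0 to 4 h and from 4 to 8 h share the arrays at 4 h. In wt cells scaling to a common median moved the median of all probes between 4 h and 8 h by 0.13, and the DHCR7 probe ILMN_2165867 then had a positive change, 0.13. The SREBF2 change in S547A cells was also positive, 0.06, without S547A 4 h replicate 3. LSS ILMN_1658271 was detected on 0 of the 6 arrays at 8 h and SREBF2 on 1 of them, so the sign of these 2 probes between 4 h and 8 h rests on levels near background.

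The lines were also set against each other at each time and in the size of their response. Besides the replaced serine of p65, they differed in RELA signal (untreated 8.84 in S547A cells and 7.78 in wt cells). Effects of the serine and of the RELA level cannot be told apart here. None of the 11 probes was called between S547A and wt cells untreated, at 4 h or at 8 h, where 0.0135%, 0.0406% and 0.0496% of all kept probes were called. By limma 0 of the 11 had an unadjusted p under 0.05. Untreated, INSIG1 ILMN_1686989 averaged 7.72 ± 0.08 in S547A cells and 7.34 ± 0.13 in wt cells, and ILMN_1793474 averaged 11.43 ± 0.08 in S547A cells and 11.58 ± 0.04 in wt cells (SD, n = 3). The arrays of the lines did not overlap on either probe, yet the differences had opposite signs, 0.38 and -0.16 (adjusted p = 0.86 and 0.95).

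The response of S547A cells minus that of wt cells was called for 0 of the 11 probes at either time, where 0.0135% and 0.018% of all kept probes were called. Exactly 1 of the 11 probes at each time had an unadjusted p under 0.05, among 1215 of all kept probes at 4 h and 1489 at 8 h. That probe was INSIG1 ILMN_1686989, with a difference of -0.69 at 4 h (unadjusted p = 0.0164, adjusted p = 0.828) and -0.59 at 8 h (unadjusted p = 0.0368, adjusted p = 0.711). The other INSIG1 probe gave -0.02 (95% interval -0.43 to 0.38) at 4 h and 0.16 (-0.24 to 0.56) at 8 h. For LSS ILMN_1715024 the difference at 8 h was -0.13 (-0.60 to 0.34), and for the SQLE probes it was 0.18 (-0.28 to 0.63) and -0.19 (-0.76 to 0.38). These intervals do not show that the lines respond alike.

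The profile of INSIG1 ILMN_1686989 over the 6 group means was then compared with those of 12048 other genes, by the root mean square difference after centring each on its own mean. The closest were HEY1 (0.132), POU3F2 (0.152), GCNT1 (0.158), AMBN (0.162) and NEFL (0.166), all closer than the other INSIG1 probe at 0.201. Among the kept probes of the listed genes, the next closest were SQLE ILMN_1772241 at 0.369 and LSS ILMN_1715024 at 0.428, and DHCR7 ILMN_2165867 was farthest at 0.744. The changes of these 5 genes by 8 h were -1.84 for HEY1, -1.94 for POU3F2, -1.73 for GCNT1, -1.71 for AMBN and -1.81 for NEFL in S547A cells, against -1.68, -1.68, -1.21, -1.25 and -1.61 in wt cells. They were selected for this likeness over 6 means, so no test is given.

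**Figure D3:**
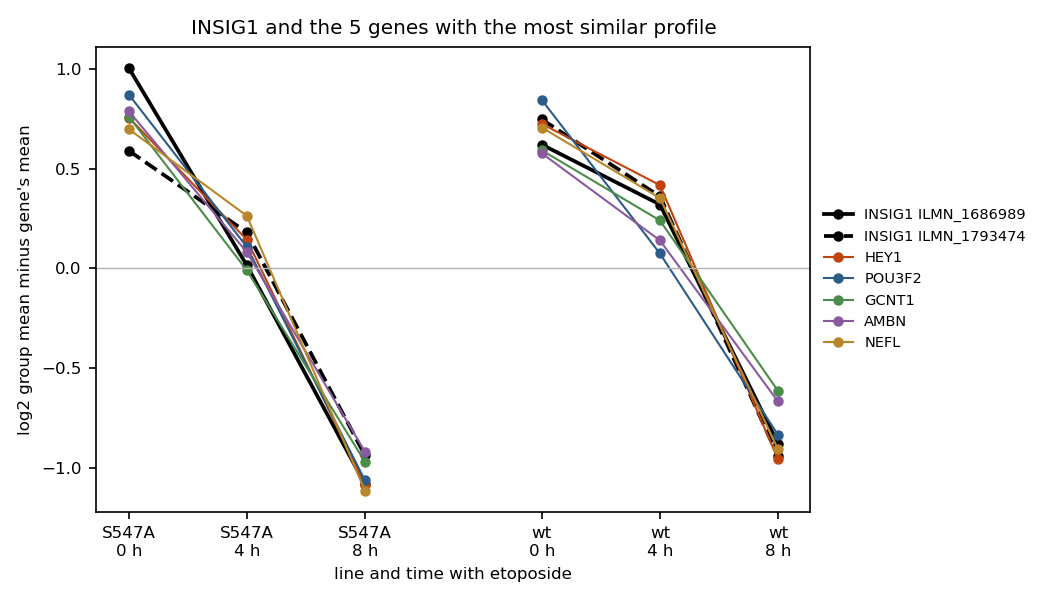
Log2 group mean minus the mean over the 6 groups for both INSIG1 probes (black) and the 5 genes with the smallest root mean square difference from ILMN_1686989 (solid black), S547A left and wt right, at 0, 4 and 8 h. Every curve is highest in untreated cells and lowest at 8 h in both lines.

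The rest of the pathway was read from gene lists, with the probe of highest mean signal for each gene. Of 13 measured sterol synthesis enzymes outside the 8 genes, 1 rose and 1 fell by 8 h in S547A cells, and 0 rose and 2 fell in wt cells. The background was 14.7% called higher and 12.7% called lower among 12055 genes in S547A cells and 15% and 11.3% in wt cells. MSMO1, the sterol C4-methyl oxidase, fell by 0.86 in S547A cells (adjusted p = 0.000905) and by 0.71 in wt cells (adjusted p = 0.00409). Of its other 2 probes, ILMN_1689842 also fell, by 0.77 in S547A cells (adjusted p = 0.000489) and by 0.74 in wt cells (adjusted p = 0.0007), and ILMN_2402499 changed by 0.38 in S547A cells and 0.04 in wt cells without a call. MVK, the mevalonate kinase, rose by 0.78 in S547A cells (adjusted p = 0.0376), a call kept in 11 of 17 alternatives (0.31 to 0.94). LBR, a sterol reductase of the nuclear envelope, fell by 0.81 in wt cells (adjusted p = 0.0154), a call kept in 13 of 17 alternatives (-0.99 to -0.69), while its other 2 probes, at -0.29 and -0.31, were not called. The list's median change was -0.15 in S547A cells and -0.17 in wt cells, against -0.01 and 0.00 over all genes. After median scaling it was 0.08 and -0.07, with 1 higher and 1 lower in S547A cells and 0 called in wt cells. The median over all kept probes was then 0.07 in S547A cells and 0.01 in wt cells. With that scaling the share of all kept probes called lower went from 10.9% to 3.91% in S547A cells. In wt cells the share went from 9.81% to 5.74%.

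Of 10 measured SREBP regulators, 3 fell by 8 h in S547A cells and 2 in wt cells. For this and the next lists, the background over all genes was 12.7% lower and 14.7% higher in S547A cells. In wt cells it was 11.3% lower and 15% higher. After median scaling the share of all kept probes called lower was 3.91% in S547A cells, against 10.9% before. In wt cells that share was 5.74%, against 9.81% before. SREBF1, which encodes the related factor SREBP1, fell by 0.88 in S547A cells (adjusted p = 0.00607) and by 0.90 in wt cells (adjusted p = 0.00542). Its other probe changed by -0.32 in S547A cells, not called, and fell by 0.82 in wt cells (adjusted p = 0.00796). SCAP, the escort protein that INSIG1 binds, fell by 0.39 in S547A cells (adjusted p = 0.0327, kept in 9 of 17 alternatives) and by 0.66 in wt cells (adjusted p = 0.001). MARCHF6, a ubiquitin ligase that acts on squalene epoxidase, fell by 0.50 in S547A cells (adjusted p = 0.0159, kept in 13 of 17 alternatives), against a change of -0.32 in wt cells, not called, and its other 2 probes were not called in either line. After median scaling 0 of the regulators fell and 1 rose in S547A cells, and 2 fell and 0 rose in wt cells. The regulator called higher then was SEC24D, a subunit of the COPII coat (0.61, adjusted p = 0.0475, against 0.45 without a call before). Of 8 measured genes of sterol uptake and transport, 4 fell in S547A cells and 2 in wt cells. After median scaling the count was 2 in each line, with TMEM97 and MYLIP, the ubiquitin ligase of the LDL receptor, no longer called in S547A cells. SCARB1, the HDL receptor, fell by 0.99 in S547A cells (adjusted p = 0.000497), against a change of -0.44 in wt cells, not called. VLDLR, a lipoprotein receptor, was not detected on any array at 8 h. Its fitted change against untreated cells was -0.93 in S547A cells (adjusted p = 0.000781) and -1.15 in wt cells (adjusted p = 0.000132). In wt cells, with 3 of 3 untreated arrays detected, it was at least 1.50-fold lower. In S547A cells 1 of 3 untreated arrays was detected, so both levels lay near background and no bound on the fold is given. TMEM97, a membrane protein that binds the lysosomal cholesterol transporter NPC1, fell by 0.57 in S547A cells (adjusted p = 0.00384) and by 0.65 in wt cells (adjusted p = 0.00139). Its other probe changed by 0.25 in S547A cells, not called, and rose by 0.48 in wt cells (adjusted p = 0.0422). Of 3 measured genes of the LXR group, NR1H3, the sterol-sensing receptor LXR alpha, rose by 1.19 in S547A cells (adjusted p = 0.000496) and by 1.37 in wt cells (adjusted p = 0.000144). LPCAT3, a phospholipid acyltransferase, fell by 0.62 in S547A cells (adjusted p = 0.00488), a call lost after median scaling, against a change of -0.35 in wt cells (adjusted p = 0.1).

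Of 11 measured SREBP1 fatty acid genes, 6 fell and 2 rose by 8 h in S547A cells, and 7 fell and 2 rose in wt cells. Among all genes 12.7% were called lower and 14.7% higher in S547A cells, and 11.3% and 15% in wt cells. The list's median change was -0.45 in S547A cells and -0.47 in wt cells. FASN, the fatty acid synthase, fell by 0.74 in S547A cells (adjusted p = 0.00139) and by 0.69 in wt cells (adjusted p = 0.00257). ACACA, the acetyl-CoA carboxylase, fell by 0.78 in S547A cells (adjusted p = 0.000399) and by 0.47 in wt cells (adjusted p = 0.0169, kept in 12 of 17 alternatives). ME1, the cytosolic malic enzyme, fell by 0.61 in S547A cells (adjusted p = 0.0048) and by 0.56 in wt cells (adjusted p = 0.00905), and median scaling ended both calls. ELOVL6, a fatty acid elongase, fell by 0.56 in S547A cells (adjusted p = 0.00666), a call lost after median scaling, and by 0.70 in wt cells (adjusted p = 0.0012). GPAM, which starts glycerolipid synthesis, rose by 0.69 in S547A cells (adjusted p = 0.00715) and by 1.04 in wt cells (adjusted p = 0.000283). LPIN1, a phosphatidate phosphatase, rose by 0.50 in S547A cells (adjusted p = 0.0217, kept in 12 of 17 alternatives) and by 0.89 in wt cells (adjusted p = 0.00032). After median scaling 3 fell in S547A cells and 4 in wt cells, and 2 rose in each. The share of all kept probes called lower also shrank with that scaling. It went from 10.9% to 3.91% in S547A cells and from 9.81% to 5.74% in wt cells. Of the 11 genes of the isoprenoid branch, which uses the intermediates ahead of squalene, 5 rose and 0 fell in S547A cells and 4 rose and 1 fell in wt cells. After median scaling the counts were 5 and 0 in S547A cells and 4 and 0 in wt cells. Higher calls over all kept probes then went from 2550 to 2954 in S547A cells and from 2555 to 2575 in wt cells. RABGGTB, a subunit of the enzyme that prenylates Rab proteins, rose by 1.23 in S547A cells (adjusted p = 4.81e-05) and by 1.04 in wt cells (adjusted p = 0.000264). DHDDS, which lengthens the dolichol chain, rose by 0.68 in S547A cells (adjusted p = 0.00134) and by 1.24 in wt cells (adjusted p = 5.26e-06). PDSS1, which makes the side chain of ubiquinone, rose by 0.81 in S547A cells (adjusted p = 0.00067) and by 0.90 in wt cells (adjusted p = 0.000269). NUS1, the partner subunit of DHDDS, fell by 0.63 in wt cells (adjusted p = 0.0249, kept in 12 of 17 alternatives), against a change of -0.48 in S547A cells, not called. None of the listed genes was called between the lines.

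**Figure D4:**
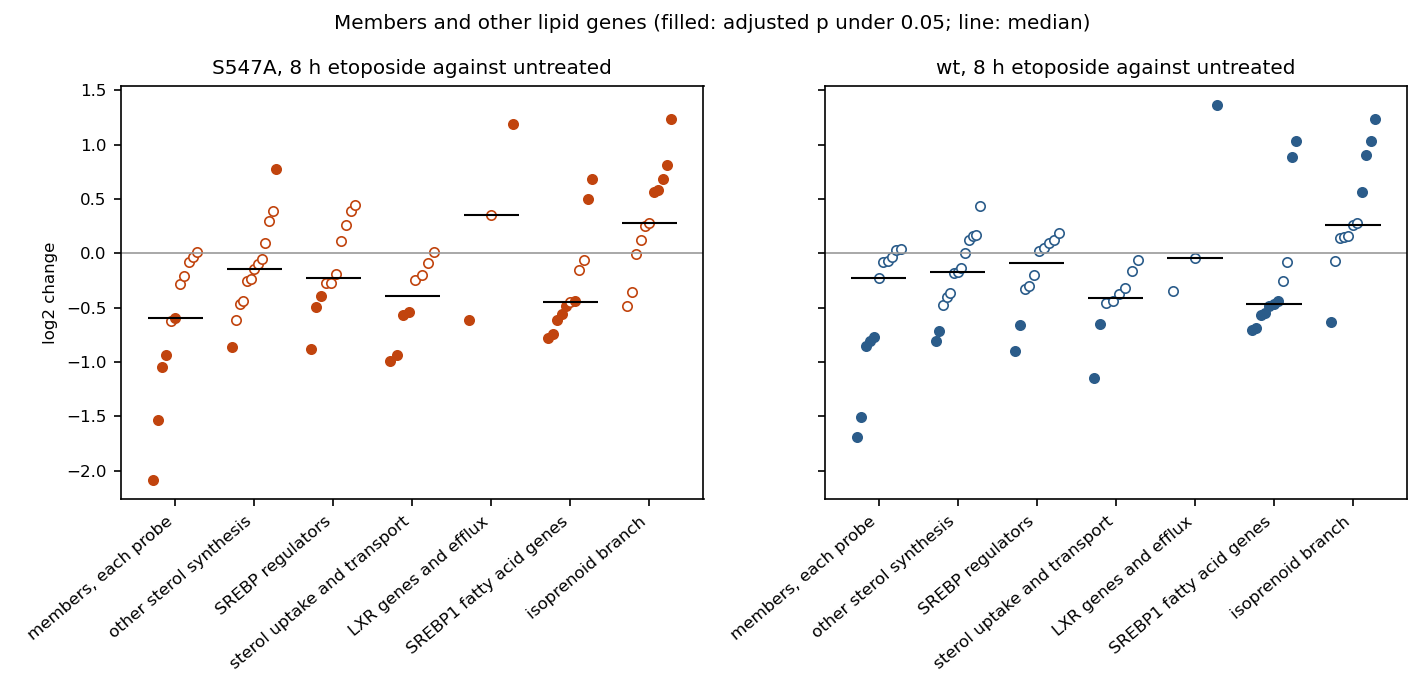
Log2 change after 8 h of etoposide against untreated cells, S547A left and wt right, for the 11 probes of the genes described here and for each measured gene of 6 further lists, with filled points for an adjusted p under 0.05 and a line for the median. The INSIG1 probes are the 2 lowest points in each panel, the SREBP1 fatty acid genes lie mostly below 0, and the isoprenoid branch lies mostly above 0.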

How the data were processed

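Total RNA of the 18 samples was labelled and hybridised to Illumina bead arrays, and the submitters' processing notes name GenomeStudio. The authors deposited a non-normalized table with the intensity of each probe and a detection p-value for each probe and array, per the file headers, and a normalized table of the same arrays in intensity units, whose method is not given in the sources used here. The intensities were background-corrected by neqc, which reads the background from the deposited detection p-values, with an offset of 16, quantile-normalized and taken to log2 (limma 3.58.1, R 4.3.3). Probes with a detection p-value under 0.05 on at least 3 arrays were kept. Symbols came from the platform annotation: 30112 probes had 1 symbol, 8 several and 17111 none, and 30073 of the first matched a RefSeq gene (GRCh38.p14, used for names). Group means of all 18 arrays were fitted at once by limma (12 residual degrees of freedom, two-sided), for 11 comparisons, and p-values were adjusted by Benjamini-Hochberg over all 22161 kept probes. A probe is called, and said to have risen or fallen, at an adjusted p under 0.05. Only the limma fit was tried on simulated data, drawn independently for each array from the normalized levels of the kept probes. The background correction, the normalization, the detection filter and any likeness of same-numbered arrays were not part of that trial. The number of arrays limits the precision. The members and the lists were chosen with earlier results of these data known. The text names every probe of the 8 genes, up to 3 called genes per list and direction, and the 5 genes closest in profile to the member with the widest range. The files give no slide or scan to test as a batch.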

Additional observations from a re-analysis of the deposited data

How the results depend on the processing

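Counts of called probes among the 11 depended on the processing where the changes were small. For wt 4 h against untreated the count was 1 in place of 0 with the authors' normalized table, without background correction and with a trended, robust variance. For wt 8 h against 4 h it was 6 in place of 3 under the same settings, and 5 with normexp, with an offset of 50 and with a stricter detection filter (14577 probes, 9 of these). For S547A 4 h against untreated it was 3 in place of 1 under all of those settings, 2 with the replicate block and 0 with 1 probe per gene. Calls over all tested probes rose under those settings too. For wt 4 h they were 1611 to 1715, against 773 higher and 565 lower in the main fit. For wt 8 h against 4 h they were 2150 to 2445, against 998 higher and 694 lower. For S547A 4 h they were 1351 to 1605 where the count was 3, against 704 higher and 482 lower. For both lines at 8 h the count among the 11 was 3 in place of 5 with 1 probe per gene, by construction. Leaving out each array in turn gave 1 to 2 for S547A 4 h (2 without S547A untreated replicate 1), 4 to 5 for S547A 8 h, 3 to 4 for S547A 8 h against 4 h, 0 for wt 4 h, 5 for wt 8 h and 3 for wt 8 h against 4 h. Every comparison between the lines and every difference of responses stayed at 0 in all settings. Of 299 alternatives to the 18 called probe results, 292 kept the call, 7 lost it and 0 reversed. The 103 results not called each had several alternatives as well, and 44 of those alternatives were called. Over called and uncalled results together, 2056 alternatives were counted as the same, 44 gained a call and 7 lost it. Another 16 changed sign without a call and moved by more than the SE of the main fit. Changes of sign within that SE, without a call, are among the 2056. The labels do not say that a replicate number marks a shared culture, batch or day, and deviations of same-numbered arrays correlated at -0.06 to 0.19, with 9 of 45 pairs above 0.1, short of every pair, so the numbers were not taken as pairs. Same-numbered arrays were nonetheless more alike, with a mean correlation of 0.06 against -0.03 for different numbers. Of the 90 pairs of different numbers 0 were above 0.1, and 15 of 18 arrays were closest to an array of their own number. The main fit leaves this likeness out. With the replicate block the S547A 4 h count was 2 in place of 1, the added call being SQLE ILMN_1772241, and 1 SQLE probe was gained between 4 h and 8 h in each line, ILMN_2041293 in S547A cells and ILMN_1772241 in wt cells. Scaling to a common median moved the median of all probes by -0.19 between untreated lines, by -0.12 between lines at 8 h and by 0.20 in the difference of responses at 4 h, and moved the share of lower calls at 8 h to 22.7% (main 48.5%) in S547A cells and to 33.1% (main 46.0%) in wt cells. The cause of these differences was not tested. SREBF2 and LSS ILMN_1658271 lay near background, which limits them to bounds.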
